A study of Homo sapiens with 24 samples.

Results

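This report describes how cells with a knockdown of SLC25A51 responded to MPP+. It rests on 6 of the 24 libraries of the series: 3 of cells carrying a short hairpin RNA against MCART1, the older symbol of SLC25A51 (shMCART1), kept for 24 h in 0.5 mM MPP+, and 3 of shMCART1 cells without it. The same exposure of cells with a scrambled hairpin (shScramble, 3 libraries with MPP+ and 3 without) is used where the question is whether a response differed with the knockdown. Cells overexpressing SLC25A51 (oeMCART1) and their control (oeNC), under the same exposure, are cited for 1 comparison. All are labelled as SH-SY5Y, a human neuroblastoma line, and all were profiled as polyadenylated RNA. The sources used here do not say whether the hairpin line was a clone or a pool, or whether replicates were separate cultures. The p-values therefore cover only the spread among libraries, which may be technical. The values are TPM, a measure of transcript abundance scaled for transcript length and to the same total in every library, so the sequencing depth is unknown.

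MPP+ is the active metabolite of the neurotoxin MPTP. It accumulates in mitochondria and blocks complex I, the enzyme that passes electrons from NADH into the respiratory chain. SLC25A51 is the carrier that brings NAD+ across the inner mitochondrial membrane, the pool from which NADH is made inside the organelle. Cells that lose respiratory function commonly engage the integrated stress response, in which phosphorylation of eIF2α slows protein synthesis while the transcription factor ATF4 raises genes for amino acid supply.

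Treatment and deposited table were the same split. The libraries with MPP+ were all in 1 table and those without in another, and the tables listed different sets of genes, so an effect of MPP+ and a difference in how the tables were made cannot be told apart for any single change below. Of the gene identifiers of the treated table, 85.8% were also in the untreated one, and these 31524 carried at least 99.3% of the TPM of every library. Each library was rescaled to the same total over them. Genes annotated as antisense that lie mostly opposite another gene moved apart from the rest. Of 116 tested genes annotated as antisense with over 50% of their exon bases under a gene on the other strand, 65 were lower and 26 higher with MPP+, with a median log2 change of -1.11, against -0.02 over all genes and 0.23 over all 569 genes annotated as antisense (192 higher, 126 lower). Whether the tables differ in how they counted the strand was not tested. Protein-coding genes did not show this shift. Their median was -0.04 over all 11828 tested (14.3% higher, 22.2% lower). It was also -0.04 over the 7017 with no exon under a gene on the other strand (13.7% higher, 21.4% lower). The log2 change also leaned with the GC content of the transcript. Spearman's rho was -0.25 across the 96.5% of tested genes with a known GC content. Whether this came from MPP+ or from the tables was not tested. The comparison of the hairpin lines' responses, further down, spans both tables in each line.

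Markers went against the cell label in part. TH, which makes L-DOPA, was listed at 0 in shMCART1 cells with and without MPP+. ALK and ELAVL4, which mark neuroblastoma cells of the sympathetic lineage, were listed at 0 in all 12 untreated libraries of the series and were not analysed here with MPP+, and DBH was not above 0.07 TPM in any of those 12. Other genes of that lineage were present, among them GATA3 at 6.72 ± 0.509 TPM with MPP+ and 4.89 ± 0.925 TPM without. The 11 sympathoadrenal markers found in both tables summed to between 549 and 551 TPM with MPP+ and to between 574 and 591 TPM without, most of it UCHL1. The 10 markers of kidney epithelium, counted because the growth protocol also names HEK293T cells, summed to between 256 and 272 TPM with MPP+ and to between 215 and 247 TPM without. Of these, KRT8 and KRT18 made up most, and PAX8 and CDH16 were at or near 0. The cells are therefore called by their label and hairpin only. Fibroblast markers (9 of 10 in both tables) summed to 14.2 to 15.7 TPM with MPP+ and 24.4 to 30.2 TPM without, nearly all of it COL1A1, and blood markers (9 of 10) to 19.5 to 25.7 TPM with MPP+ and 32.6 to 43.9 TPM without, nearly all of it HBA1. Schwann cell markers summed to 9.68 to 11.8 TPM without MPP+, a range that lay within the one with it. The part of these in the results below was not tested.

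SLC25A51, the knockdown's target, lies on the minus strand of chromosome 9 from 37879400 to 37904353 in GENCODE 29 (ENSG00000122696). It stood at 5.13, 5.83 and 5.07 TPM in shMCART1 cells with MPP+, against 6.96, 9.50 and 5.50 TPM in those without. The groups overlapped. The log2 change was -0.37 ± 0.19 (SE; limma, adjusted p = 0.167), and permuting the TPM of the 6 libraries gave an exact two-sided p of 0.2, with 0.1 the smallest possible for 3 against 3. With MPP+, shMCART1 cells held 67.5% of the level of shScramble cells, and without it 66.5%. The change of SLC25A51 on MPP+ was not called different between the hairpin lines (difference 0.07 ± 0.22 on the log2 scale, adjusted p = 0.881), and its sign turned under some settings.

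Of 13781 genes tested, 5349 (38.8%) changed with MPP+ at an adjusted p under 0.05. Of all genes tested, 2355 (17.1%) rose and 2994 (21.7%) fell. Log2 changes are given on the log2(TPM + 1) scale, which understates changes of low genes, and the 6 libraries have equal weight. The count lay between 3288 and 6324 when any 1 library was left out. Between 12913 and 13736 genes reached 1 TPM in each of the 6 libraries, with the lowest count in untreated replicate 3. Pearson's r of log2 values was 0.988 to 0.990 among treated replicates, 0.976 to 0.990 among untreated replicates and 0.934 to 0.944 across the 2 groups. In bulk RNA, fewer cells of a kind and less RNA per cell cannot be told apart. With so many genes called, the counts of each gene group below are read beside these shares.

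**Figure D1:**
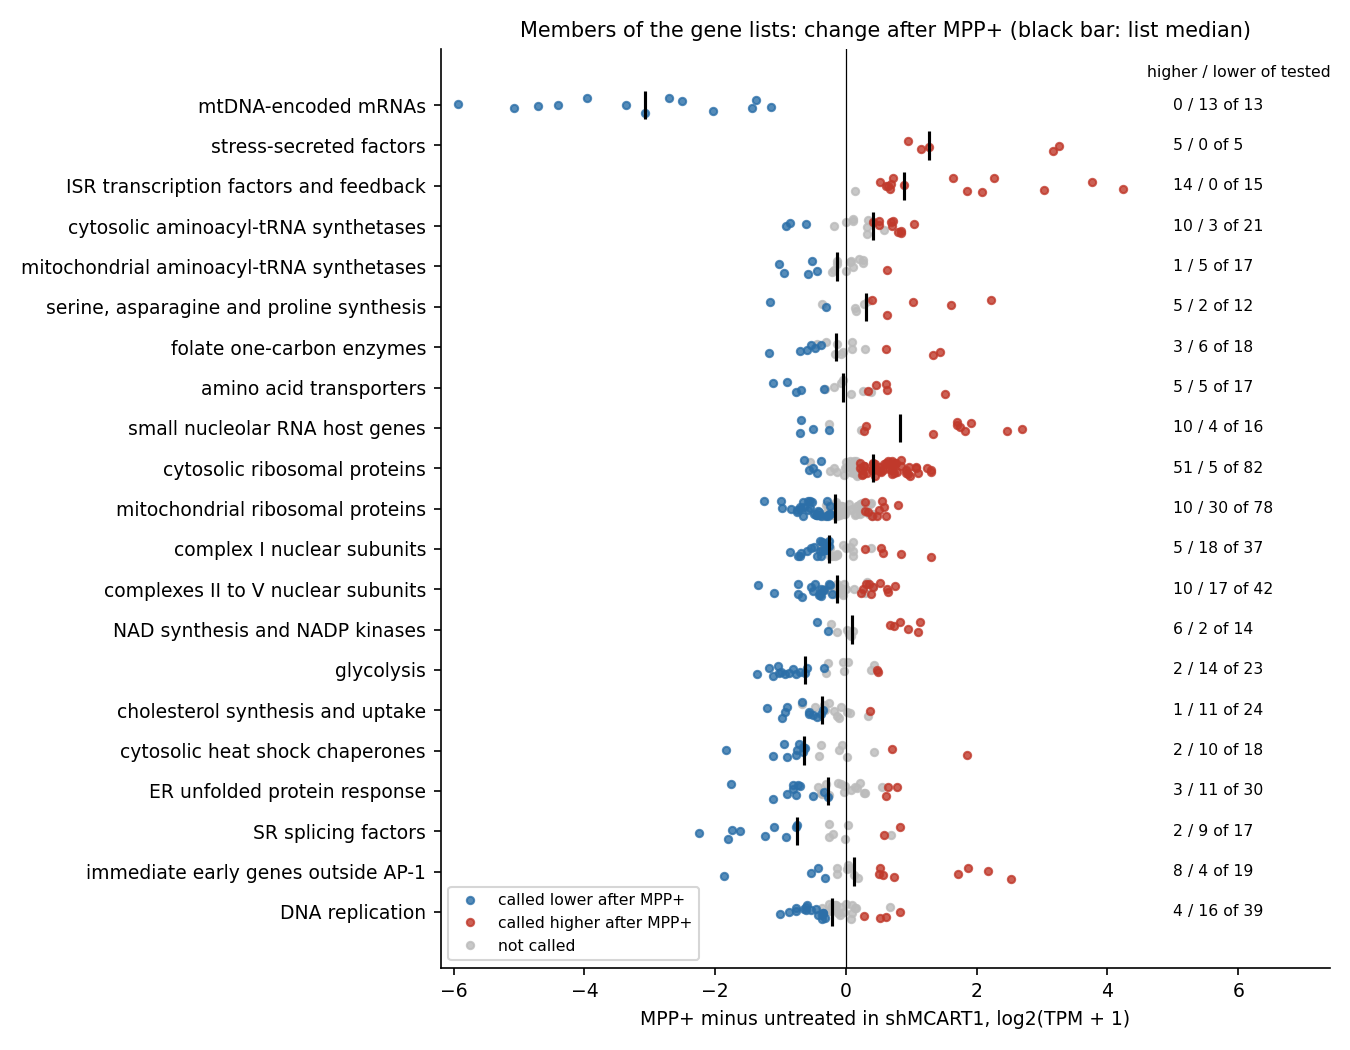
Log2 change with MPP+ in shMCART1 cells for each tested member of 21 gene lists. Red points were called higher with MPP+, blue points lower and grey points were not called; the black bar is the list's median, and the numbers on the right count members called higher and lower among those tested. The mRNAs of mitochondrial DNA lie furthest to the left by their median, with all 13 called lower, and stress response genes lie to the right.

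Among the gene lists, the mRNAs of mitochondrial DNA had the deepest median fall. Mitochondrial DNA encodes 13 mRNAs, each for a subunit of the respiratory chain or the ATP synthase, and all 13 fell, with a median log2 change of -3.08. Together they took 0.435, 0.418 and 0.403% of all TPM with MPP+, against 5.04, 4.92 and 3.87% without. The mean share with MPP+ was 9.08% of that without it, and the groups were far apart (two-sided exact permutation p = 0.1, the smallest possible). MT-ND3, a complex I subunit and among the most abundant of these mRNAs without MPP+, stood at 262, 254 and 259 TPM with MPP+ and at 16120.0, 14673 and 16938 TPM without (log2 change -5.94 ± 0.07, adjusted p = 4.63e-09). MT-CO3, a subunit of cytochrome c oxidase, averaged 137 ± 10.8 TPM with MPP+ and 4745 ± 923 TPM without. MT-CYB, the catalytic core of complex III, averaged 35.7 ± 4.13 TPM with MPP+ and 974 ± 250.3 TPM without. Untreated replicate 3 was the lowest untreated library for every one of them but MT-ND3, and no treated library reached it.

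The depth of the fall differed along the genome. The heavy-strand promoter gives rise to a long transcript that starts before the ribosomal RNA gene MT-RNR1 and is cut into ribosomal RNAs, transfer RNAs and 12 of the 13 mRNAs. In that order, MT-RNR1 changed by -0.81 ± 0.22 and MT-RNR2 by 1.25 ± 0.10 on the log2 scale. MT-ND1, 2.66 kb from the start of MT-RNR1, changed by -1.37 ± 0.15 and MT-ND2, at 3.82 kb, by -1.14 ± 0.22. MT-CO1, at 5.26 kb, changed by -2.04 ± 0.21. Past these, the falls were deeper: -3.96 ± 0.13 for MT-CO2, -2.71 ± 0.20 for MT-ATP8, -3.36 ± 0.19 for MT-ATP6 and -5.08 ± 0.14 for MT-CO3. The far end held -5.94 ± 0.07 for MT-ND3, -2.51 ± 0.20 for MT-ND4L, -3.08 ± 0.21 for MT-ND4, -4.41 ± 0.27 for MT-ND5 and -4.70 ± 0.19 for MT-CYB, at 14.1 kb. Spearman's rho between distance and change was -0.78 over these 14 genes and -0.65 over the 12 mRNAs alone, as a description of neighbouring genes that share a transcript. MT-ND6, the only mRNA read from the opposite strand, changed by -1.43 ± 0.27.

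The order along the heavy strand was noticed after the values were seen. The same description gave rho of -0.74 in shScramble cells over the 14 genes, a comparison through the same 2 tables. The overlapping pairs MT-ATP8 with MT-ATP6 and MT-ND4L with MT-ND4 share bases, and nuclear copies of mitochondrial sequence such as MTATP6P1 can take or give reads. MTATP6P1 itself stood at 7.15 to 10.3 TPM with MPP+ and 115 to 192 TPM without. The ribosomal RNAs, which carry only short tails, are read with less certainty in polyadenylated RNA. The call of MT-RNR1 ended without untreated replicate 1 or treated replicates 1 or 2 (adjusted p = 0.0718, 0.0757 and 0.0614). MT-RNR2 was higher with MPP+ in every library, at 3099, 2953 and 3465 TPM with it and 1340.5, 1507 and 1160.2 TPM without.

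**Figure D2:**
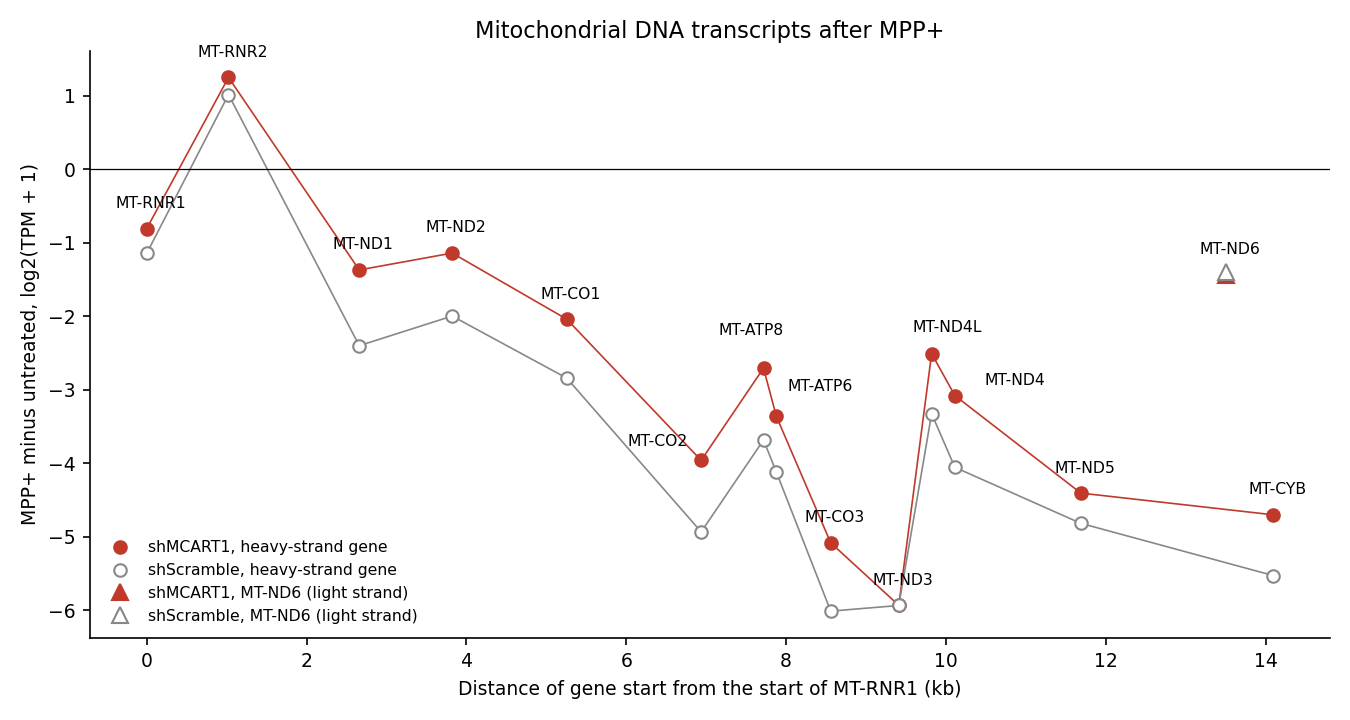
Log2 change with MPP+ of each mitochondrial DNA transcript against the distance of its start from the start of MT-RNR1, in kb. Filled red symbols are shMCART1 cells and open grey ones shScramble cells; triangles mark MT-ND6, on the other strand. In shMCART1 cells the change was -1.37 at MT-ND1 and -4.70 at MT-CYB.

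Nuclear genes for the same machinery moved far less and in both directions. Of 37 nuclear complex I subunits, 18 fell and 5 rose with MPP+, with a median of -0.26, but this lean turned under quantile normalization, which gave 5 lower, 12 higher and a median of 0.03. NDUFA3, an accessory subunit, averaged 207 ± 18.4 TPM with MPP+ and 377 ± 63.2 TPM without. NDUFS4, a subunit needed for stable assembly of the NADH-oxidising arm, went the other way, at 79.5, 75.1 and 76.2 TPM with MPP+ and 31.1, 39.1 and 23.9 TPM without (1.29 ± 0.16, adjusted p = 0.000621). NDUFS1, the iron-sulfur subunit of that arm, also rose (0.85 ± 0.16). Of 17 assembly factors of complex I, 1 rose and 1 fell. Of 42 nuclear subunits of complexes II to V, 17 fell and 10 rose (6 and 17 under quantile normalization), with ATP5MC1 of the ATP synthase ring at 477 ± 8.65 TPM with MPP+ and 1222 ± 151 TPM without, and UQCRH of complex III at 1608 ± 23.2 TPM with MPP+ and 967 ± 158 TPM without.

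Of 30 genes that copy and transcribe mitochondrial DNA, 8 fell and 1 rose, a share of falls near that of all genes, with a median of -0.15. Under quantile normalization 9 fell and 5 rose. POLRMT, the mitochondrial RNA polymerase, stood at 48.6, 49.7 and 49.6 TPM with MPP+ and at 86.0, 74.1 and 97.9 TPM without (-0.78 ± 0.11, adjusted p = 0.001). The helicase TWNK (-0.69 ± 0.12) and the DNA polymerase POLG (-0.38 ± 0.08) also fell. TFAM, which packages mitochondrial DNA and starts its transcription, averaged 6.49 ± 0.913 TPM with MPP+ and 9.65 ± 1.91 TPM without and did not pass the test (-0.50 ± 0.17, adjusted p = 0.0536). PPARGC1B, a coactivator of mitochondrial biogenesis, fell (-0.92 ± 0.18). Of 78 mitochondrial ribosomal proteins 30 fell and 10 rose, a split that became 17 and 20 under quantile normalization, and MRPS12 had the largest fall (-1.26 ± 0.13).

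The integrated stress response showed the opposite picture. All but 1 of the 15 transcription factors and feedback genes on that list rose with MPP+ and none fell, where 17.1% of all genes rose, and the list's median was 0.88. DDIT3, the transcription factor CHOP, stood at 135, 136 and 121 TPM with MPP+ and at 10.6, 8.98 and 6.77 TPM without (3.77 ± 0.15, adjusted p = 2.84e-06). ATF3 averaged 364 ± 44.3 TPM with MPP+ and 43.6 ± 2.47 TPM without. NUPR1, a small chromatin protein that is raised by many stresses, stood at 37.5, 31.8 and 32.7 TPM with MPP+ and at 0.786, 0.251 and 1.82 TPM without (4.24 ± 0.27). In none of these 3 genes did a treated library come near an untreated one. The gene DDIT3 has 31.6% of its exon bases under genes on the other strand, so its reads may be shared with them.

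ATF4, the factor that drives the response and is controlled mainly in its translation, changed little at the RNA level, at 937, 939 and 932 TPM with MPP+ and 656, 676 and 628 TPM without (0.52 ± 0.06, adjusted p = 0.000336). Its feedback inhibitors rose more. TRIB3, a pseudokinase that binds ATF4, averaged 91.0 ± 6.33 TPM with MPP+ and 20.8 ± 2.73 TPM without. PPP1R15A, which brings the phosphatase to eIF2α, averaged 107 ± 5.36 TPM with MPP+ and 28.9 ± 1.32 TPM without. CHAC1, which breaks down glutathione, averaged 23.9 ± 2.52 TPM with MPP+ and 4.22 ± 0.757 TPM without. SESN2 and DDIT4, inhibitors of the growth kinase mTORC1, rose by 0.71 ± 0.12 and 0.88 ± 0.08 on the log2 scale, and CEBPG, a partner of ATF4 on DNA, by 1.63 ± 0.20. DDIT4 has 41.2% of its exon bases under a gene on the other strand. ATF2 was the member that did not pass.

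All 5 tested of 6 stress-secreted factors rose, with a median of 1.26. GDF15, a circulating marker of mitochondrial disease, stood at 12.2, 12.7 and 9.26 TPM with MPP+ and at 0.111, 0.191 and 0.614 TPM without (3.25 ± 0.20, adjusted p = 2.14e-05). INHBE, an activin subunit, averaged 11.5 ± 0.616 TPM with MPP+ and 0.396 ± 0.0767 TPM without. STC2, a secreted glycoprotein, averaged 62.1 ± 5.91 TPM with MPP+ and 25.3 ± 3.21 TPM without. FGF21, a metabolic hormone, was at 1.11, 1.27 and 1.25 TPM with MPP+ and listed at 0 in all 3 untreated libraries, and ADM2 rose by 0.95 ± 0.18 on the log2 scale.

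**Figure D3:**
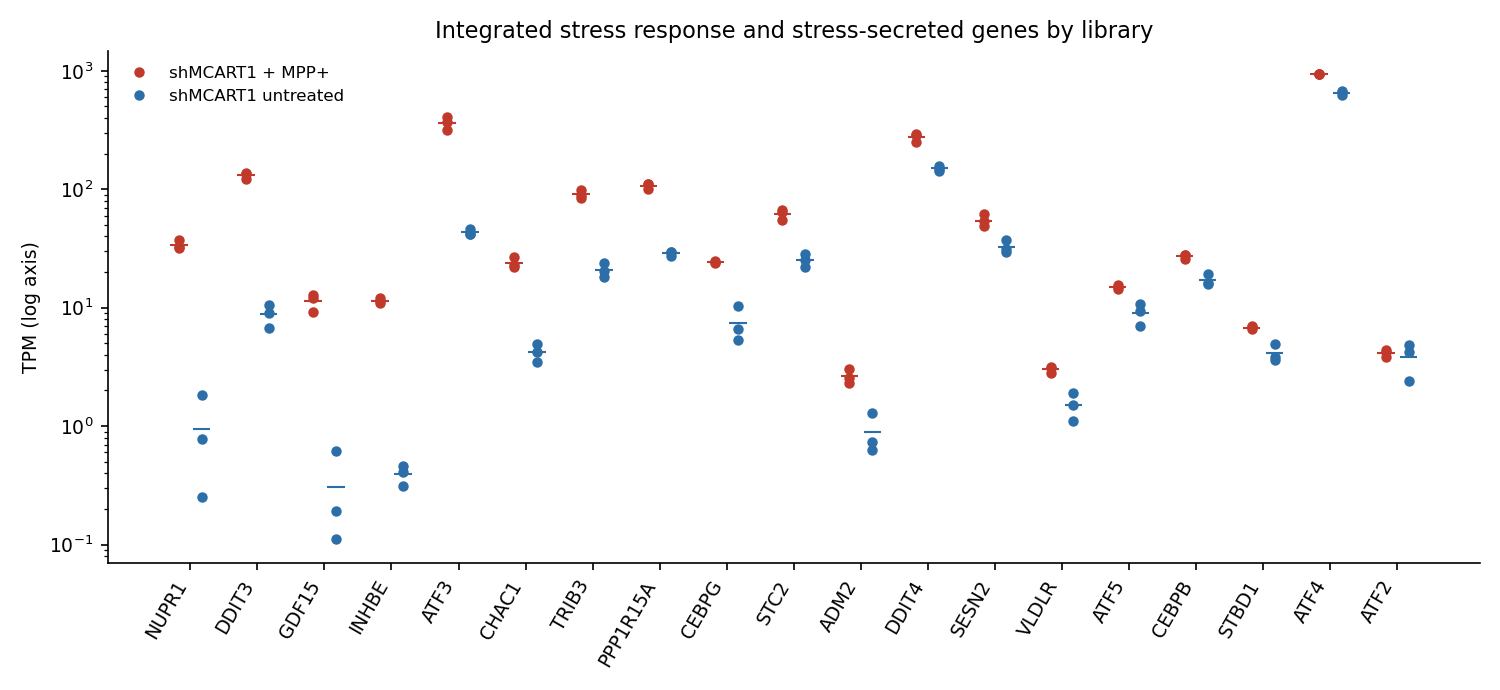
TPM on a log axis of each integrated stress response gene and stress-secreted factor in the 3 shMCART1 libraries with MPP+ (red, left) and the 3 without (blue, right); short lines are means. Genes run by size of change, and FGF21 is left out since it is listed at 0 without MPP+. ATF3 lay between 317 and 405 TPM with MPP+, and between 42.1 and 46.4 TPM without.

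Genes for amino acid supply, many of them known ATF4 targets, moved in both directions. Among 21 cytosolic aminoacyl-tRNA synthetases, which load transfer RNAs, 10 rose and 3 fell (median 0.42). CARS1 averaged 72.0 ± 2.82 TPM with MPP+ and 34.7 ± 5.23 TPM without, SARS1 440.0 ± 6.31 TPM with MPP+ and 254 ± 3.85 TPM without, and AARS1 282 ± 0.311 TPM with MPP+ and 174 ± 4.12 TPM without. GARS1 (0.85 ± 0.12) and YARS1 (0.72 ± 0.06) rose by similar amounts on the log2 scale. FARSA, HARS1 and VARS1 were the 3 that fell, by 0.91, 0.62 and 0.85 on the log2 scale. Of 17 mitochondrial synthetases, 1 rose and 5 fell.

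ASNS, which makes asparagine, led the synthesis enzymes at 527, 519.8 and 539.8 TPM with MPP+ and 121, 125 and 93.7 TPM without (2.22 ± 0.11, adjusted p = 7.82e-06). Of the 12 tested genes of serine, asparagine and proline synthesis, 5 rose and 2 fell. PSAT1 of serine synthesis (1.02 ± 0.13) and CTH of cysteine synthesis (1.61 ± 0.11) rose, while PYCR3, a proline enzyme, fell (-1.16 ± 0.15). PHGDH, the committing step of serine synthesis, averaged 729 ± 14.3 TPM with MPP+ and 558 ± 67.8 TPM without, a call that median-of-ratios scaling ended (adjusted p = 0.0825). PCK2, the mitochondrial enzyme that makes phosphoenolpyruvate, rose to 120.0 ± 5.62 TPM with MPP+, against 21.4 ± 2.34 TPM without.

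Folate enzymes moved in both directions. The mitochondrial enzymes MTHFD2 (284 ± 15.4 TPM with MPP+ and 115 ± 30.5 TPM without), ALDH1L2 (1.44 ± 0.18 on the log2 scale) and MTHFD1L (0.62 ± 0.11) were the 3 that rose of 18, and 6 fell, with the largest fall in GCSH of the glycine cleavage system, also mitochondrial (-1.18 ± 0.14). MTHFD2 has 33.2% of its exon bases under genes on the other strand. Of 17 tested amino acid transporters, 5 rose and 5 fell. SLC43A1, a carrier of large neutral amino acids, averaged 33.2 ± 0.699 TPM with MPP+ and 11.0 ± 1.03 TPM without, and the taurine carrier SLC6A6 averaged 7.30 ± 1.15 TPM with MPP+ and 16.9 ± 1.35 TPM without.

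Promoters of these genes were searched for the composite element that ATF4 binds with C/EBP factors, TGATGNAA, on either strand, from 250 bases before to 50 after the RefSeq start. It was found in 1.52% of the 10188 promoters of tested genes that have an entry, and in 3.67% of all 27305 entries. The cytosolic synthetases held it in 6 of 17 promoters (35.3%), the amino acid transporters in 4 of 15 and the stress response list in 2 of 13. Over 6 lists of amino acid stress genes, 10 of the 36 risen members with an entry held it, as did 1 of 12 fallen members and 4 of 19 that were not called. A match is a description of the letters and no evidence of binding. The 5 below are shown because they belong to risen genes of different roles and their element lies before the start. Each is 250 bases up to the start on the gene's strand (RefSeq, GRCh38.p14), with the element in capitals; it begins 68 bases before the start of ASNS (chr7:97872409-97872658, minus strand), 209 before CHAC1 (chr15:40953221-40953470, plus strand), 191 before ATF3 (chr1:212565157-212565406, plus strand), 187 before AARS1 (chr16:70289507-70289756, minus strand) and 129 before MTHFD1L (chr6:150866236-150866485, plus strand).
ASNS: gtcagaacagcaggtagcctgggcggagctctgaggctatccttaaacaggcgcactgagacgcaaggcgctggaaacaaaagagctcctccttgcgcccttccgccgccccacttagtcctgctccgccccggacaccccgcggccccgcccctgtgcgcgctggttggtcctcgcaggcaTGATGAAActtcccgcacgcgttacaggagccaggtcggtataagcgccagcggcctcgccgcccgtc
CHAC1: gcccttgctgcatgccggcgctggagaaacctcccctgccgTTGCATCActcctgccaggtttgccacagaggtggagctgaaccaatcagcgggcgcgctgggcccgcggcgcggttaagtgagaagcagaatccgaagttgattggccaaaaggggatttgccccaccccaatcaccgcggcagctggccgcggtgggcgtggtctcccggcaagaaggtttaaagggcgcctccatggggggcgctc
ATF3: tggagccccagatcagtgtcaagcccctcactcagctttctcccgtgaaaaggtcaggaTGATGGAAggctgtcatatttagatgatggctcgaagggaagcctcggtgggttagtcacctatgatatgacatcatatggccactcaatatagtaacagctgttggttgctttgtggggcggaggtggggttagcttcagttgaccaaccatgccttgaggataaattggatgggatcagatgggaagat
AARS1: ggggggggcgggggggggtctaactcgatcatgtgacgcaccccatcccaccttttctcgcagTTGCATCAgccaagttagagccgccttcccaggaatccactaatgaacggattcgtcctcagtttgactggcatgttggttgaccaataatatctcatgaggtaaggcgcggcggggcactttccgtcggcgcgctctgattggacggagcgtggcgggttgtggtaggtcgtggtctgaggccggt
MTHFD1L: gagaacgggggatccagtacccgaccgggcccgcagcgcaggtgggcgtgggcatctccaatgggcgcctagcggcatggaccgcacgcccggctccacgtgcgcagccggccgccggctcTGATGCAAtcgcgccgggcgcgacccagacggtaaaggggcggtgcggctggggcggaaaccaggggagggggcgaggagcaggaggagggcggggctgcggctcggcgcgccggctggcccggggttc

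CHAC1 and AARS1 hold it on the other strand, where the letters read TTGCATCA on the printed one. In ASNS the match reads TGATGAAA, in ATF3 TGATGGAA and in MTHFD1L TGATGCAA.

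Most cytosolic ribosomal protein genes rose. Of 82 tested cytosolic ribosomal proteins, 51 rose and 5 fell (median 0.41), and the lean kept its direction under each scaling run. RPL26 stood at 7517, 7307 and 7582 TPM with MPP+ and at 2947, 3627 and 2583 TPM without (1.30 ± 0.11, adjusted p = 0.000112). RPL31 rose by 1.29 ± 0.14, while RPL38 fell by 0.64 and RPS26 by 0.57 on the log2 scale. These genes have many near-identical pseudogenes, so their levels depend on how reads were assigned. EEF1A1, the elongation factor, averaged 9261 ± 162 TPM with MPP+ and 4486 ± 971 TPM without. Translation factors as a whole were mixed, with 9 higher and 7 lower of 26: EIF4EBP1, which blocks the cap-binding factor, averaged 623 ± 1.86 TPM with MPP+ and 304 ± 36.8 TPM without, and the scaffold EIF4G1 averaged 157 ± 3.08 TPM with MPP+ and 405 ± 13.4 TPM without.

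Most host genes of small nucleolar RNAs rose. Their spliced transcripts carry short reading frames and are known to be destroyed by nonsense-mediated decay while they are translated. Of 16, 10 rose and 4 fell, with a median of 0.82. Noncoding genes annotated as lincRNA also leaned upward: of 423 tested, 183 (43.3%) rose and 69 fell, with a median of 0.43. The part of this in the host gene count was not tested. GAS5 stood at 2421, 2327 and 2457 TPM with MPP+ and at 389, 396 and 330.0 TPM without (2.69 ± 0.08, adjusted p = 7.54e-07). SNHG32 averaged 403 ± 11.9 TPM with MPP+ and 72.5 ± 1.56 TPM without, ZFAS1 366 ± 23.6 TPM with MPP+ and 96.4 ± 6.06 TPM without, and SNHG5 1095 ± 53.7 TPM with MPP+ and 309 ± 37.2 TPM without. SNHG8 was among the 4 that fell (-0.69 ± 0.09). The gene ZFAS1 has 26.1% of its exon bases under genes on the other strand, and SNHG32 has none.

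SR proteins bind exons and direct splicing. Of 17 tested genes of that list, 9 fell and 2 rose, with a median of -0.75, and all 4 scaling alternatives left 9 lower. SRSF3 stood at 73.7, 71.0 and 76.0 TPM with MPP+ and at 390.2, 419 and 267 TPM without (-2.24 ± 0.16, adjusted p = 4.1e-05). SRSF1 averaged 39.8 ± 8.48 TPM with MPP+ and 144 ± 42.6 TPM without, SRSF6 14.9 ± 0.683 TPM with MPP+ and 52.6 ± 9.23 TPM without, and SRSF2 101 ± 2.73 TPM with MPP+ and 315 ± 35.8 TPM without. CLK4, a kinase that phosphorylates these proteins, rose by 0.83 ± 0.17. SRSF2 has 36.7% of its exon bases under MFSD11 on the other strand, and among the 13 members with no such overlap 6 fell and 1 rose, with a median of -0.28.

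Most glycolytic enzymes fell. Of 23 tested, 14 fell, 2 rose and 7 were not called, where 21.7% of all genes fell, with a median of -0.63. PKM, the pyruvate kinase, stood at 643, 658 and 663 TPM with MPP+ and at 1702, 1508 and 1832 TPM without (-1.35 ± 0.08, adjusted p = 1.74e-05). ALDOA averaged 1049.8 ± 26.1 TPM with MPP+ and 2401 ± 367 TPM without, ENO1 1655 ± 26.0 TPM with MPP+ and 3613 ± 291 TPM without, LDHA, which regenerates NAD+ from NADH, 358 ± 16.5 TPM with MPP+ and 734 ± 144 TPM without, and GAPDH 3294 ± 45.4 TPM with MPP+ and 5009 ± 427 TPM without. HK2, a hexokinase, did not pass the test (26.1 ± 2.05 TPM with MPP+ and 27.0 ± 5.59 TPM without). ENO2 was one of the pair that rose (0.48 ± 0.09).

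Genes that make NAD+ rose in part. Of 14 tested of NAD synthesis and NADP kinases, 6 rose and 2 fell, with a median of 0.09. NAMPT, the rate-limiting enzyme that recycles nicotinamide, stood at 21.7, 23.3 and 24.2 TPM with MPP+ and at 14.3, 16.7 and 10.2 TPM without (0.73 ± 0.17, adjusted p = 0.0107). NMNAT1, which completes NAD+ in the nucleus, averaged 10.6 ± 0.784 TPM with MPP+ and 4.37 ± 0.0128 TPM without, and NMNAT2, its Golgi and axonal relative, 9.68 ± 1.16 TPM with MPP+ and 3.91 ± 0.810 TPM without. Of 14 genes for enzymes that consume NAD+, 2 rose and 2 fell, with PARP3 the largest rise (1.32 ± 0.16).

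Lipid and protein-folding genes fell in part. Of 24 cholesterol genes, 11 fell and 1 rose (median -0.36). FASN, the fatty acid synthase, averaged 137 ± 3.33 TPM with MPP+ and 284 ± 46.3 TPM without. Of 18 tested cytosolic heat shock chaperones, 10 fell and 2 rose. HSPA1B fell (137 ± 14.7 TPM with MPP+ and 489 ± 77.7 TPM without) and HSPB8 rose (13.2 ± 1.06 TPM with MPP+ and 2.92 ± 0.424 TPM without). The near-identical HSPA1A shares reads with HSPA1B, so its level is uncertain.

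The unfolded protein response of the endoplasmic reticulum did not rise as a group. Of 30 genes, 11 fell and 3 rose. SDF2L1 (46.5 ± 3.76 TPM with MPP+ and 162 ± 32.1 TPM without), CRELD2 (-1.11 ± 0.11) and the calcium-binding chaperone CALR (-0.91 ± 0.05) fell. HSPA5, the main chaperone of that compartment, stood at 272, 237 and 215 TPM with MPP+ and at 245, 289 and 202 TPM without (adjusted p = 0.938), and the groups overlapped. The sign of its difference turned under quantile normalization (0.28).

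Immediate early genes moved in both directions. Of 19 tested outside the AP-1 family, 8 rose, 4 fell and 7 were not called. Of 12 AP-1 factors, 3 rose, 4 fell and 5 were not called. CCN1, a secreted matrix protein, stood at 131, 110.0 and 83.1 TPM with MPP+ and at 18.4, 18.5 and 16.1 TPM without (2.52 ± 0.16, adjusted p = 2.61e-05). RHOB, a small GTPase of the endosome, averaged 293 ± 37.0 TPM with MPP+ and 63.5 ± 0.533 TPM without, and JUN, a subunit of AP-1, 351 ± 52.6 TPM with MPP+ and 99.1 ± 11.0 TPM without. The phosphatase DUSP1 (1.87 ± 0.14) and KLF6 (1.71 ± 0.17) rose too. EGR1 averaged 1.24 ± 0.179 TPM with MPP+ and 7.18 ± 0.928 TPM without, FOS 1.93 ± 0.205 TPM with MPP+ and 5.39 ± 0.815 TPM without, and FOSB 0.651 ± 0.138 TPM with MPP+ and 3.77 ± 0.214 TPM without.

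Of 28 tested p53 targets, 5 rose and 5 fell, shares near those of all genes. GADD45A stood at 96.4 ± 3.54 TPM with MPP+ and 18.2 ± 3.82 TPM without. PMAIP1, the death protein NOXA, rose (76.9 ± 4.35 TPM with MPP+ and 19.7 ± 4.41 TPM without), and BAX, which opens the outer mitochondrial membrane, fell (139 ± 17.7 TPM with MPP+ and 251 ± 21.2 TPM without). Of 39 replication genes 16 fell and 4 rose, and of 35 mitosis genes 10 fell and 2 rose. This lean depended on the scaling. Under quantile normalization 9 replication genes fell and 6 rose (median -0.08), and 7 mitosis genes fell and 6 rose (median -0.06). PLK1 fell by 1.04, MKI67 by 1.00, INCENP by 1.32 and UHRF1 by 1.02 on the log2 scale. Of 25 autophagy genes 8 rose and 2 fell, among them the receptors OPTN (1.30 ± 0.20) and NBR1 (0.95 ± 0.16) and GABARAPL1 (0.94 ± 0.12), which sits on the autophagosome.

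Polyamine and methionine genes held a pair of large opposite changes. SAT1, which acetylates polyamines for export, averaged 149 ± 20.3 TPM with MPP+ and 25.6 ± 3.43 TPM without (2.49 ± 0.13, adjusted p = 1.07e-05). MAT2A, which makes the methyl donor S-adenosylmethionine, averaged 21.3 ± 3.46 TPM with MPP+ and 89.0 ± 16.9 TPM without (-2.01 ± 0.17, adjusted p = 8.99e-05), with 12.4% of its exon bases under GGCX on the other strand. SAT1 was the only riser of the 18 tested of that list, and 6 fell.

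Several of the largest single changes lie in genes that the 2 tables may have counted differently. ARMC2-AS1 stood at 60.3 to 62.3 TPM with MPP+ and H2AC19, a histone gene with a near-identical copy, at 11.6 to 27.1 TPM, and both were listed at 0 in all 12 untreated libraries of the series. S100P, a calcium-binding protein, stood at 9.40 to 14.4 TPM with MPP+ and was listed at 0 in the 3 untreated shMCART1 libraries. CAST, the calpain inhibitor, was listed at 0 in the 3 treated shMCART1 libraries and in 10 of the 12 treated libraries of the series, against 11.7 to 20.1 TPM in untreated shMCART1 cells, and PCBP1-AS1 and RPS16P9 were likewise at 0 in all 3 treated shMCART1 libraries. TUBA1B-AS1, with 80.2% of its exon bases under TUBA1B, stood at 14.6 to 17.5 TPM with MPP+ and 594 to 896 TPM without, FOXD1-AS1 lies wholly under FOXD1, and ZACN lies under EXOC7 over 61.5% of its bases. HEXA-AS1, EFCAB13-DT, FAM66A, SCHIP1 and CSAG2, which has near-identical copies, stood at 8.07 TPM or more in each treated and at 1.11 TPM or less in each untreated shMCART1 library. No fold is given for them, and whether they changed in the cells was not tested.

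The question of whether the knockdown altered the response was put to the difference between the responses of the 2 hairpin lines. An effect of lowering SLC25A51, which was reduced only in part, and any other difference between these 2 lines cannot be told apart. Of 14872 genes tested in 12 libraries, 122 (0.82%) differed at an adjusted p under 0.05. The change with MPP+ was more positive in shMCART1 cells for 57 (0.383%) and more negative for 65 (0.437%), and 2848 had an unadjusted p under 0.05. The count rests on single libraries: it was 19 without treated shMCART1 replicate 2 and 1781 without untreated shMCART1 replicate 2. Of 30 named differences, 12 held their call in each of the 12 fits that leave out a library, namely PHTF2, RHOB, INSIG1, ADAMTS1, JUN, KLF6, DUSP1, ATF3, SESN2, TRIB3, INHBE and NCOA5. Calls of the other 18 ended in 2 to 10 of these fits, with no change of sign.

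A minority of immediate early genes responded more positively in shMCART1 cells. Of 19 tested outside AP-1, 5 had a more positive response in shMCART1 cells and none a more negative one, and of 12 AP-1 factors 2 did, JUN and ATF3. RHOB stood at 331, 291 and 257 TPM in shMCART1 cells with MPP+ and 64.1, 63.6 and 63.0 TPM without, and at 89.4, 66.6 and 58.1 TPM in shScramble cells with MPP+ and 57.0, 54.6 and 52.3 TPM without (difference 1.82 ± 0.19, adjusted p = 0.0017). JUN stood at 398, 360.3 and 294 TPM in shMCART1 cells with MPP+ and 98.5, 110.3 and 88.4 TPM without, and at 136, 113 and 110.1 TPM in shScramble cells with MPP+ and 102, 101 and 109.8 TPM without (1.61 ± 0.17, adjusted p = 0.0017). For both genes the 3 shMCART1 libraries with MPP+ stood above the other 9. KLF6 (1.44 ± 0.19), DUSP1 (1.40 ± 0.18) and ATF3 (1.09 ± 0.15) were also more positive, and so was CCN1 (1.32 ± 0.20), whose call ended in 5 fits (adjusted p up to 0.0684, without shScramble replicate 3 with MPP+). SAT1 also rose more (1.15 ± 0.17; call ended in 2 fits, up to 0.0549 without treated shMCART1 replicate 2).

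INSIG1, ADAMTS1, PHTF2 and SOX4 had a higher mean with MPP+ in shMCART1 cells and a lower one in shScramble cells. INSIG1, which holds back cholesterol synthesis, stood at 70.8, 63.3 and 60.3 TPM in shMCART1 cells with MPP+ and 50.5, 55.7 and 44.3 TPM without, and at 29.8, 27.8 and 26.4 TPM in shScramble cells with MPP+ and 72.2, 76.8 and 71.2 TPM without (difference 1.72 ± 0.13, adjusted p = 0.000241). ADAMTS1, a matrix protease, followed the same pattern (1.62 ± 0.15, adjusted p = 0.000796), as did PHTF2 (1.89 ± 0.23, adjusted p = 0.00447) and the transcription factor SOX4 (1.46 ± 0.24, adjusted p = 0.0197; ended in 7 fits, up to 0.079 without shScramble replicate 3 with MPP+, and at 0.0501 with no filter on low values).

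Of the 15 integrated stress response genes, 5 had a more negative response in shMCART1 cells, 1, ATF3, a more positive one, and 9 were not called. Among related lists, 3 of 5 secreted factors and 4 of 18 amino acid transporters were more negative with none more positive; with no filter on low values these counts were 2 and 2, and with a pseudocount of 0.1 they were 1 and 4. SESN2 stood at 48.5, 53.6 and 61.3 TPM in shMCART1 cells with MPP+ and 31.4, 29.8 and 37.3 TPM without, and at 113, 116 and 123 TPM in shScramble cells with MPP+ and 28.9, 24.0 and 30.5 TPM without (-1.34 ± 0.16, adjusted p = 0.00447). TRIB3 stood at 85.1, 90.2 and 97.7 TPM in shMCART1 cells with MPP+ and 20.6, 18.2 and 23.7 TPM without, and at 180.3, 169.9 and 190.4 TPM in shScramble cells with MPP+ and 16.9, 14.3 and 17.2 TPM without (-1.32 ± 0.15, adjusted p = 0.00272). In both genes the lines were close without MPP+ and apart with it. INHBE did likewise (-1.10 ± 0.15, adjusted p = 0.00916).

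Calls that ended in some fits were those of CHAC1 (-1.37 ± 0.22, adjusted p = 0.0204; ended in 5 fits), GDF15 (-1.31 ± 0.25, adjusted p = 0.0426; 9 fits), NUPR1 (-1.53 ± 0.32, adjusted p = 0.0468; 10 fits), CEBPB (-0.99 ± 0.18; 8 fits) and FGF21 (-1.02 ± 0.17; 7 fits). Without treated shMCART1 replicate 1 the adjusted p was 0.0804 for CHAC1, 0.107 for GDF15 and CEBPB and 0.12 for NUPR1, and without shScramble replicate 3 with MPP+ it was 0.079 for FGF21. A pseudocount of 0.1 ended the calls of NUPR1 (0.0881), GDF15 (0.258) and FGF21 (0.214), and no filter on low values those of NUPR1 (0.1), GDF15 (0.0851), CEBPB (0.0547), SLC7A5 (0.0585) and SLC6A9 (0.0535). The calls of NUPR1 and GDF15 also ended under each scaling alternative other than TPM as deposited, and that of SLC7A5 under median-of-ratios scaling (0.0527). The 4 transporters were SLC3A2 (-0.60 ± 0.10), SLC7A5 (-0.73 ± 0.13), SLC1A4 (-0.86 ± 0.15) and SLC6A9 (-0.86 ± 0.16), whose calls ended in 7 to 10 fits. No member of the synthetase list of the cytosol and none of the serine, asparagine and proline list was called, and ASNS stood at 527, 519.8 and 539.8 TPM in shMCART1 cells with MPP+ and 647, 688 and 668 TPM in shScramble cells with MPP+ (difference of the responses -0.02 ± 0.13, adjusted p = 0.933).

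**Figure D4:**
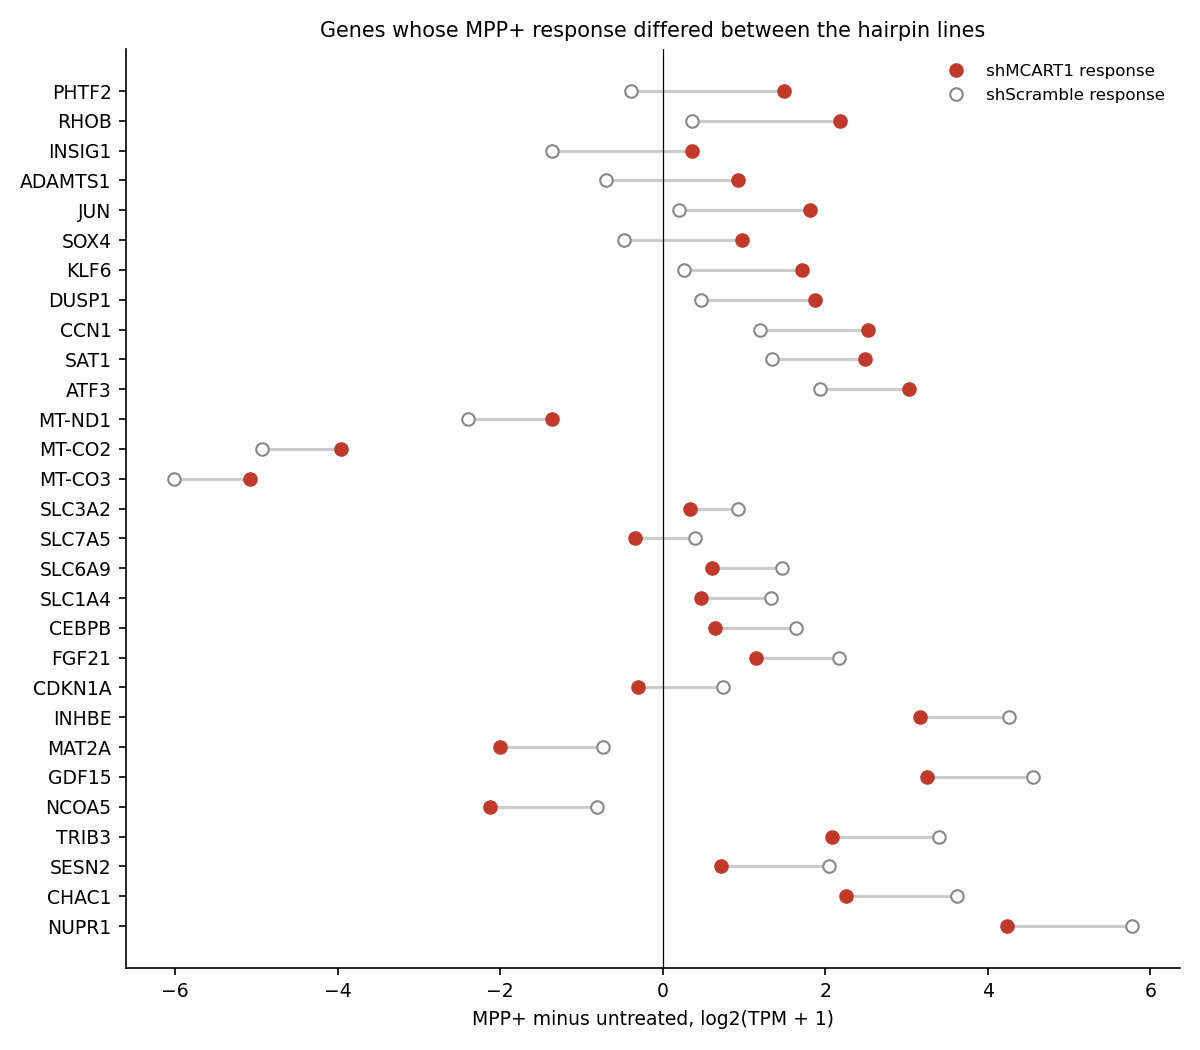
Log2 change with MPP+ in shMCART1 cells (filled red) and shScramble cells (open grey) for 29 genes called in the test of the difference, ordered by that difference. At the top, RHOB and JUN rose more in shMCART1 cells, and at the bottom, TRIB3, SESN2 and CHAC1 rose less.

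NCOA5, a coactivator of nuclear receptors, fell further in shMCART1 cells (-1.32 ± 0.17, adjusted p = 0.00725). It stood at 5.69, 5.72 and 7.02 TPM in shMCART1 cells with MPP+ and 28.5, 35.4 and 27.2 TPM without. In shScramble cells it stood at 17.1, 18.8 and 20.7 TPM with MPP+ and 31.5, 33.6 and 36.2 TPM without. MAT2A also fell further (-1.28 ± 0.21, adjusted p = 0.0204). Its call ended in 7 fits, with adjusted p up to 0.079 without shScramble replicate 3 with MPP+, and it ended with no filter on low values. CDKN1A, the p53 target p21, averaged lower with MPP+ in shMCART1 cells and higher in shScramble cells (-1.05 ± 0.16, adjusted p = 0.0138; ended in 3 fits, up to 0.0549 without treated shMCART1 replicate 2). ENSG00000232995, which has no symbol in the name table used, was at or under 7.28 TPM in all 12 libraries (-1.55 ± 0.30, adjusted p = 0.0403; 9 fits, up to 0.119 without shScramble replicate 3 with MPP+).

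The fall of mitochondrial transcripts was less deep in shMCART1 than in shScramble cells for 3 of the 13 mRNAs, and the median difference was 0.83. With no filter on low values none of the 13 was called, and the adjusted p was 0.0875 for MT-CO2, 0.0702 for MT-CO3 and 0.0875 for MT-ND1. MT-CO2 stood at 366, 329.5 and 379.5 TPM in shMCART1 cells with MPP+ and 6439, 5983 and 4531 TPM without, and at 194, 227 and 171 TPM in shScramble cells with MPP+ and 6302, 5473 and 6331 TPM without (difference 0.97 ± 0.18, adjusted p = 0.0364). MT-CO3 (0.93 ± 0.16, adjusted p = 0.0299) and MT-ND1 (1.03 ± 0.20, adjusted p = 0.0394) were the others. Their calls ended in 8, 9 and 10 of the fits without a library, with adjusted p up to 0.112 for MT-CO2, 0.106 for MT-CO3 and 0.12 for MT-ND1, each without treated shMCART1 replicate 1. The summed share of the 13 mRNAs was 0.419 ± 0.0163% in shMCART1 cells with MPP+ and 4.61 ± 0.643% without, and 0.285 ± 0.0236% in shScramble cells with MPP+ and 4.92 ± 0.268% without. For MT-ND3, which fell furthest in shMCART1 cells, the difference was 0.00 ± 0.15. A shallower fall than in a control line was not particular to the knockdown. The median log2 change of the 13 mRNAs was -3.08 in shMCART1 and -4.06 in shScramble cells. It was -1.99 in oeMCART1 cells and -4.14 in oeNC cells, a difference that was not tested here. The summed share of the 13 mRNAs was 0.726 ± 0.0601% in oeMCART1 cells with MPP+ and 4.46 ± 0.508% without. In oeNC cells it was 0.421 ± 0.0316% with MPP+ and 8.73 ± 1.08% without. Unlike the hairpin lines, these 2 lines thus stood far apart without MPP+ too.

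**Figure D5:**
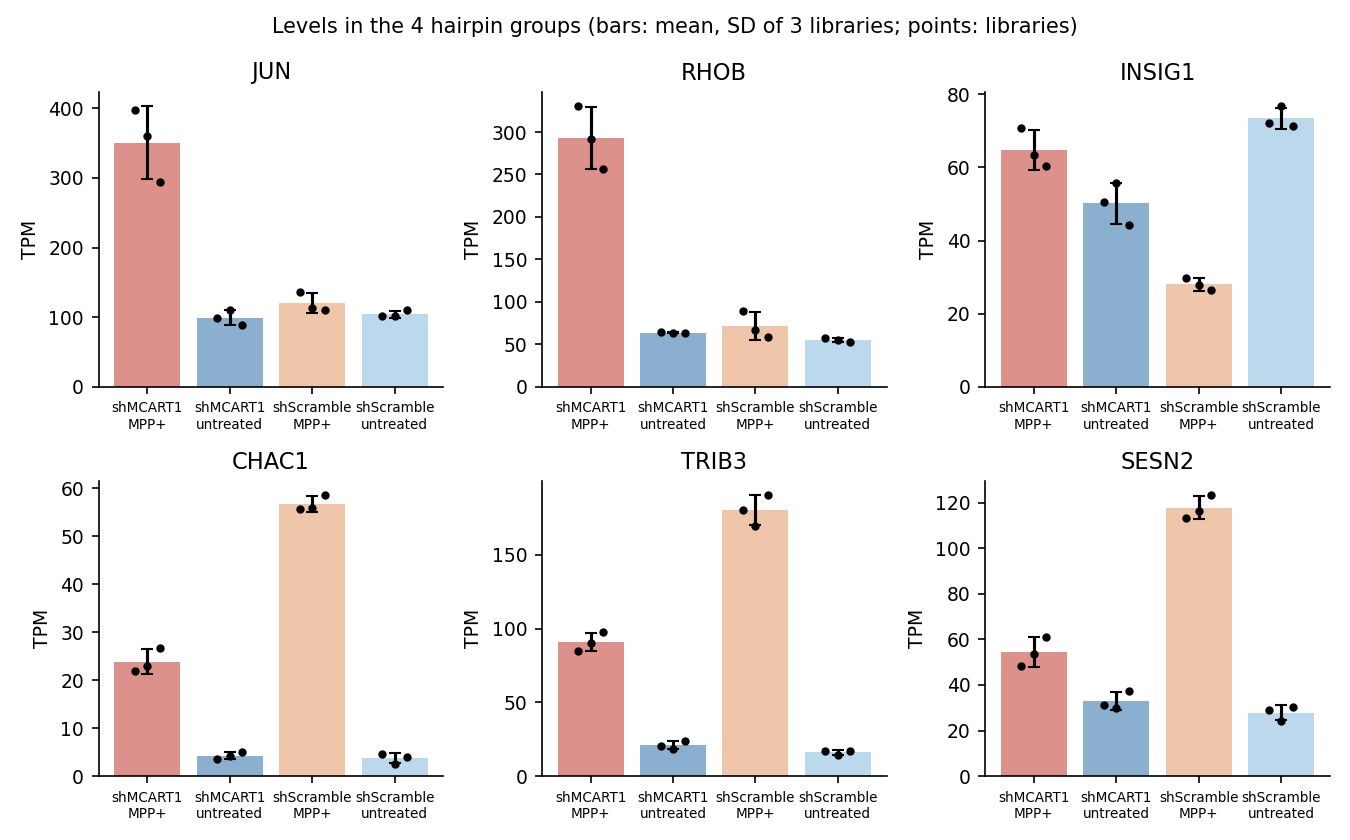
TPM of 6 genes in the 4 groups of the hairpin lines. Bars are means with the SD of 3 libraries, and points are the libraries. JUN and RHOB were highest in shMCART1 cells with MPP+, INSIG1 was lowest in shScramble cells with MPP+, and CHAC1, TRIB3 and SESN2 were highest in shScramble cells with MPP+.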

How the data were processed

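The authors deposited TPM in 1 table of 12 untreated and 1 of 12 treated libraries. Per the labels, strand-specific libraries were made from polyadenylated RNA. The submitters' processing notes name the builds GRCh38, GRCm38 and mm10 without a role for each; how reads were aligned, on which annotation, and with which strand setting is not given in the sources used here. TPM keep no depth, so no counting interval is given. Of the entries, 42 of the treated and 25 of the untreated table held no gene identifier and were left out.

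From the deposited TPM, the 31524 shared identifiers were kept, each library was rescaled to the same total over them, and genes that reached 1 TPM in 3 or more libraries were tested on log2(TPM + 1) with limma 3.58.1 in R 4.3.3 (trended variance; Benjamini-Hochberg; called under 0.05). The difference between responses was the interaction in 12 libraries. Locations came from GENCODE 29 (possibly another release than the authors'); promoter sequences from RefSeq. The fit was also run on simulated data with independent normal noise and no table effect. That run cannot show how the table split or single outlying libraries act on the counts. Tables were made with python 3.11.15 and pandas 2.3.3.

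In a check of pairing, deviations of same-numbered libraries were uncorrelated, so replicate numbers were not used to pair. Members and lists were chosen with earlier results of these data known, so lists are described by counts and medians and no test is made over them. Named were SLC25A51, the 12 largest rises and 12 largest falls among called genes with a symbol, 5 TPM or more in the higher group and no overlap, the 6 largest differences in each direction, and list members with large changes or a defining role. MT-RNR1 and MT-RNR2 fall outside this rule and were chosen after their values were seen, as were the promoters shown. Alternatives were another pseudocount (0.1), no filter or one of 5 TPM, median-of-ratios and quantile scaling, mitochondrial genes left out, TPM as deposited, a GC trend removed, a replicate block, robust variance, library weights, more libraries in the fit, each library left out and, added after seeing the data, protein-coding genes with no opposite-strand exon. A few list members are not reported here.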

Additional observations from a re-analysis of the deposited data

Results flagged for a closer look

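The following genes are listed because a test of the difference itself found their response to MPP+ to differ between shMCART1 and shScramble cells (log2 difference, limma, adjusted p under 0.05). More positive in shMCART1 cells were PHTF2 (1.89), RHOB (1.82), INSIG1 (1.72), ADAMTS1 (1.62), JUN (1.61) and SOX4 (1.46). More negative were ENSG00000232995 (-1.55), NUPR1 (-1.53), CHAC1 (-1.37), SESN2 (-1.34), TRIB3 (-1.32) and NCOA5 (-1.32). Of the mitochondrial DNA mRNAs, MT-ND1 (1.03), MT-CO2 (0.97) and MT-CO3 (0.93) fell less deeply in shMCART1 cells. Not all of these calls were stable when any of the 12 libraries was left out. Calls ended in 10 fits for MT-ND1 and NUPR1, 9 for MT-CO3 and ENSG00000232995, 8 for MT-CO2, 7 for SOX4 and 5 for CHAC1. Those of the other genes listed here held in every such fit. With no filter on low values, none of the mitochondrial mRNAs was called. Groups of 3 libraries are too small for a test of single outlying samples.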

How the results depend on the processing

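The count of genes changed with MPP+ in shMCART1 cells was 5349. It was 10219 with library weights, 2521 of 7493 over protein-coding genes with no opposite-strand exon (fewer genes tested; added after seeing the data), and 3288 to 6324 with 1 library left out; the other settings stayed within 1.5 times. The fall of the mitochondrial share kept its direction throughout. The count of differing responses was 122. It was 81 with no filter, 274 with quantile normalization, 79 without mitochondrial genes, 669 with the GC trend removed, 4268 with library weights, 630 with all 24 libraries in the fit, 79 over protein-coding genes with no opposite-strand exon, and 19 to 1781 with 1 library left out; apart from the fewer genes tested, the cause was not tested.

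Replicate numbers did not pair the libraries (correlations of same-numbered deviations -0.02, -0.06 and -0.16). With a replicate block, 4324 genes changed with MPP+ and 73 responses differed. The block left called 2 of the 3 mitochondrial mRNAs, 2 secreted factors and 2 amino acid transporters.

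For SLC25A51 the log2 change of -0.37 passed the threshold with quantile normalization (-0.41), library weights (-0.32) and all 24 libraries in the fit (-0.37), and ranged from -0.53 (without untreated shMCART1 replicate 3, where it passed) to -0.18 with 1 library left out. Its difference from shScramble turned to -0.039 with median-of-ratios scaling and -0.070 with quantile normalization, and ranged from -0.10 to 0.25 with 1 library left out. HSPA5, not called, turned to 0.28 with quantile normalization and ranged from -0.15 to 0.11 with 1 library left out. HK2, not called, turned to 0.048 with quantile normalization and 0.011 with the GC trend removed, and ranged from -0.19 to 0.11 with 1 library left out. TPM hold no depth, so counting error behind low values is unknown, and 3 libraries a group limit every test.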
